A study of Mus musculus with 7 samples.

Results

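Microglial identity and activation genes were followed in vascular fragments of the mouse brain after an injection of PDGF-CC into the cerebral ventricles. The group was a list of 36 genes, and each was read from its brightest probe set among those annotated with that symbol alone. Of these, 35 had such a probe set, 1 each, out of 22180 genes with one on the array, and all 35 were bright enough to be tested, among 15582 genes. Slco2b2 had none and is not analysed here. By their textbook roles, 13 measured members were taken as homeostatic (genes of resting microglia), 11 as activation genes and 11 as shared myeloid genes, which other macrophages and leukocytes also use. The members and roles were chosen with earlier results of these data known.

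The mice were 12-week-old C57BL/6N females per the series design (the sample labels give C57BL/6, adult), and no genetic change is named for either group. One group received PDGF-CC (4 arrays) and the other phosphate-buffered saline, PBS (3 arrays), both by the intracerebroventricular route, and tissue was taken after 4 hours. Both groups had therefore been injected, and no uninjected brain is part of the comparison. PDGF-CC belongs to the platelet-derived growth factors and signals mainly through PDGFR-alpha; its dose is not given in the sources used here. Vascular fragments are pieces of small brain vessels with cells that adhere to them. The labels do not tell whether each array holds a separate mouse, so p-values and errors reflect variation among these arrays, some of which could be technical.

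Microglia are the resident macrophages of the brain parenchyma. They survive on signals through the receptor CSF1R, whose ligands are CSF1 and interleukin-34, and TGF-beta keeps them in their resting state. Resting microglia carry receptors that sense their surroundings, such as the ADP receptor P2RY12 and the fractalkine receptor CX3CR1. When activated, they commonly lower these and raise genes of phagocytosis, lipid handling and antigen presentation, such as Cd68, Apoe and Cd83. Microglial processes and cell bodies touch brain vessels, and vessel preparations can carry them along.

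Values are log2 expression levels that had been made comparable between arrays before deposit. The arrays correlated with each other at 0.987 to 0.994. Over all tested probe sets, limma gave the lowest array weights, which measure how well an array fits its group, to PDGF-CC array 1 (0.642) and PBS array 2 (0.642), against 0.853 to 1.52 for the others. Endothelial markers were above the brightness threshold, a mean log2 value of 4.145, for all 12 genes listed. Of 9 lymphocyte markers 8 were measured and 3 of those were below it, as were the neutrophil granule genes Camp and Ngp. The sample descriptions carry running numbers: PDGF-CC arrays have 1, 2, 5 and 6, and PBS arrays 3, 4 and 7.

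Most microglial genes lay higher in the PDGF-CC arrays, by small amounts, and none passed the adjusted threshold. Of 35 members, 32 had a positive difference between PDGF-CC and PBS and 3 a negative one, and the median difference was +0.23 (log2). Over all tested genes 48.7% were positive, with a median of -0.0029. Adjusted p by limma lay between 0.769 and 0.987 for the members, so 0 of 35 were called, with a background of 0% of 17734 probe sets. At an unadjusted p under 0.05, 8 members were higher (22.9%), against 2.58% of all tested genes, and 0 were lower. In 8 members every PDGF-CC array lay above every PBS array, against 1.81% of all tested genes. In bulk RNA, fewer cells of a type and less RNA per cell cannot be told apart.

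Much of this difference lay in PBS array 2. It was the lowest of the 7 arrays in 28 of 35 members (80%), against 18.4% of all tested genes. Against the mean of PBS arrays 1 and 3, the median member stood at -0.39 in PBS array 2, while the PDGF-CC mean stood at only +0.074. Without PBS array 2 the median difference was +0.074, and 26 members remained positive (74.3%), while 46.6% of all tested genes were positive. Of the 32 positive members, 20 lost more than 50% of their difference, against 2223 of the 7592 positive genes among all tested genes. An array weight computed over the members alone gave PBS array 2 a value of 0.11, against 0.949 to 1.73 for the other arrays. That weight comes from the same values, so it restates their drop in PBS array 2 and adds no separate evidence. The members' summed signal (log2 of the sum) was 14.88 to 14.99 in the PDGF-CC arrays and 14.49 to 14.92 in the PBS arrays, with 14.49 in PBS array 2.

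**Figure D1:**
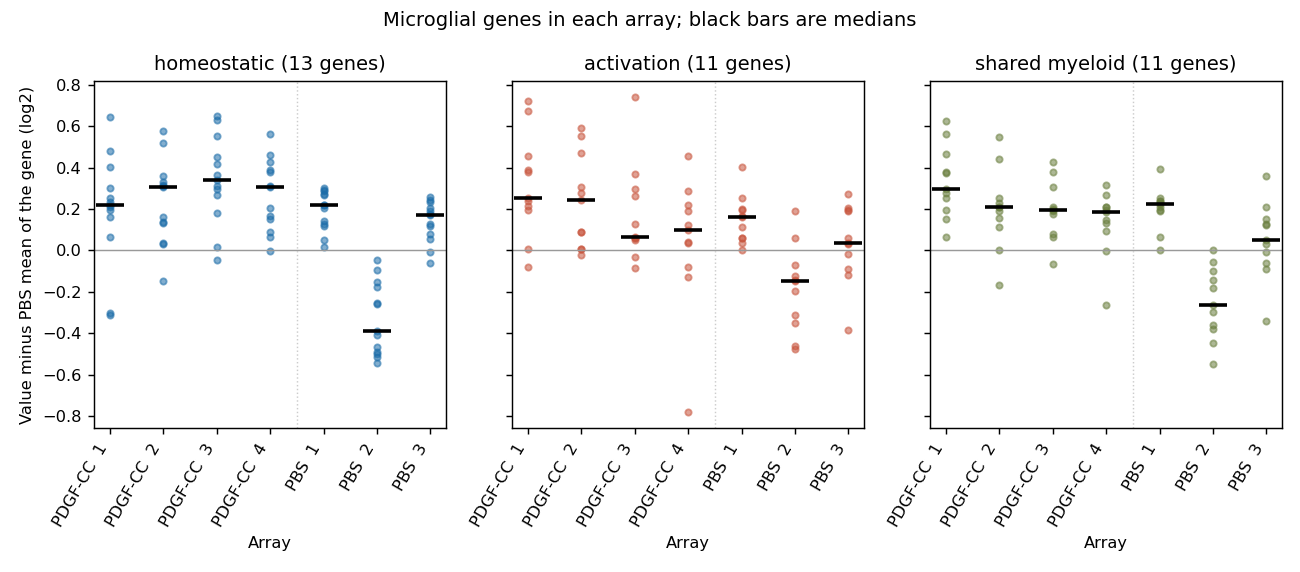
Each point is 1 gene in 1 array, as its log2 value minus the gene's PBS mean (vertical axis), for the 4 PDGF-CC and 3 PBS arrays (horizontal axis) and for the 3 roles; black bars are medians. PBS array 2 has the lowest median in all 3 panels, at -0.39, -0.15 and -0.27, while PBS arrays 1 and 3 lie between +0.036 and +0.23.

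Part of the difference remained without PBS array 2. At an unadjusted p under 0.05, 6 members were then higher, against 2.28% of all tested genes. All 6 were among the 8 found with every array. The 2 fits share most of their arrays, so such an overlap is partly built in. Over all tested genes, 194 of the 356 genes higher without PBS array 2 were also found with every array. The 6 members were Cx3cr1, P2ry12, P2ry13, Trem2, Gpr183 and Lpcat2. The 8 members with every PDGF-CC array above every PBS array had to stay above PBS arrays 1 and 3, so their count says nothing further. No other member joined them, while the share of all tested genes rose from 1.81% to 5.37%. The lowest adjusted p of a member was then 0.804 by limma.

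Among homeostatic genes, Cx3cr1 and P2ry13 had the largest differences. Of 13 measured members 11 were positive, with a median of +0.29, 3 at an unadjusted p under 0.05 and 4 with groups that did not overlap. Cx3cr1, the receptor for the neuronal and endothelial chemokine fractalkine, read 11.35, 11.28, 11.16 and 11.17 in PDGF-CC arrays 1 to 4 and 10.999, 10.24 and 10.89 in PBS arrays 1 to 3. All PDGF-CC values lay above all PBS values, and PBS array 2 stood far below the other 2. Its difference was +0.53 ± 0.18 (SE, n = 4 and 3, adjusted p = 0.769 by limma), and +0.30 ± 0.077 without PBS array 2. P2ry13, a purinergic receptor for ADP, read 9.56, 9.44, 9.71 and 9.65 after PDGF-CC and 9.35, 8.57 and 9.32 after PBS. Again the groups did not overlap, and the difference of +0.51 ± 0.19 became +0.25 ± 0.086 without PBS array 2.

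P2ry12, the ADP receptor that directs microglial processes to sites of damage, was the homeostatic member that rested least on PBS array 2 among those at an unadjusted p under 0.05. It read 10.77, 10.87, 10.92 and 10.94 after PDGF-CC and 10.77, 10.40 and 10.49 after PBS. PBS array 1 reached the lowest PDGF-CC array, while PBS arrays 2 and 3 were both lower. The difference was +0.32 ± 0.096, and +0.24 ± 0.095 without PBS array 2.

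The microglial transcription factor Sall1 read 9.08, 8.98, 9.23 and 8.98 after PDGF-CC and 8.96, 8.13 and 8.93 after PBS. Its groups did not overlap, but PBS arrays 1 and 3 were only just below the PDGF-CC arrays, and the difference of +0.39 ± 0.20 was +0.12 ± 0.083 without PBS array 2. Mertk, a receptor kinase for the uptake of dying cells, read 9.56, 9.50, 9.70 and 9.51 after PDGF-CC and 9.48, 9.19 and 9.42 after PBS. Its groups did not overlap, though PDGF-CC array 2 was only just above PBS array 1, and the difference of +0.20 ± 0.089 was +0.12 ± 0.075 without PBS array 2. Fcrls, an Fc receptor-like gene typical of microglia, read 9.84, 10.05, 9.95 and 9.84 after PDGF-CC and 9.84, 9.04 and 9.72 after PBS. PBS array 1 overlapped with the PDGF-CC arrays, and the difference of +0.39 ± 0.19 was +0.14 ± 0.083 without PBS array 2.

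The remaining homeostatic members showed little apart from PBS array 2. Gpr34, Olfml3, Csf1r, Tgfbr1 and Siglech differed by +0.34, +0.29, +0.27, +0.17 and +0.16 with all arrays. Without PBS array 2 they were at +0.13, +0.036, +0.072, +0.041 and +0.029. Csf1r is the growth factor receptor on which microglia depend, and its PBS array 2 value of 10.18 stood 0.58 below the mean of the other PBS arrays. Tmem119, a membrane protein used as a microglial marker, and Selenop, which encodes the selenium carrier selenoprotein P, were the negative members, at -0.048 ± 0.10 and -0.12 ± 0.081. Both were lowest in PDGF-CC array 1, and in PBS array 2 they stood at -0.14 and -0.067 relative to the mean of the other PBS arrays.

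**Figure D2:**
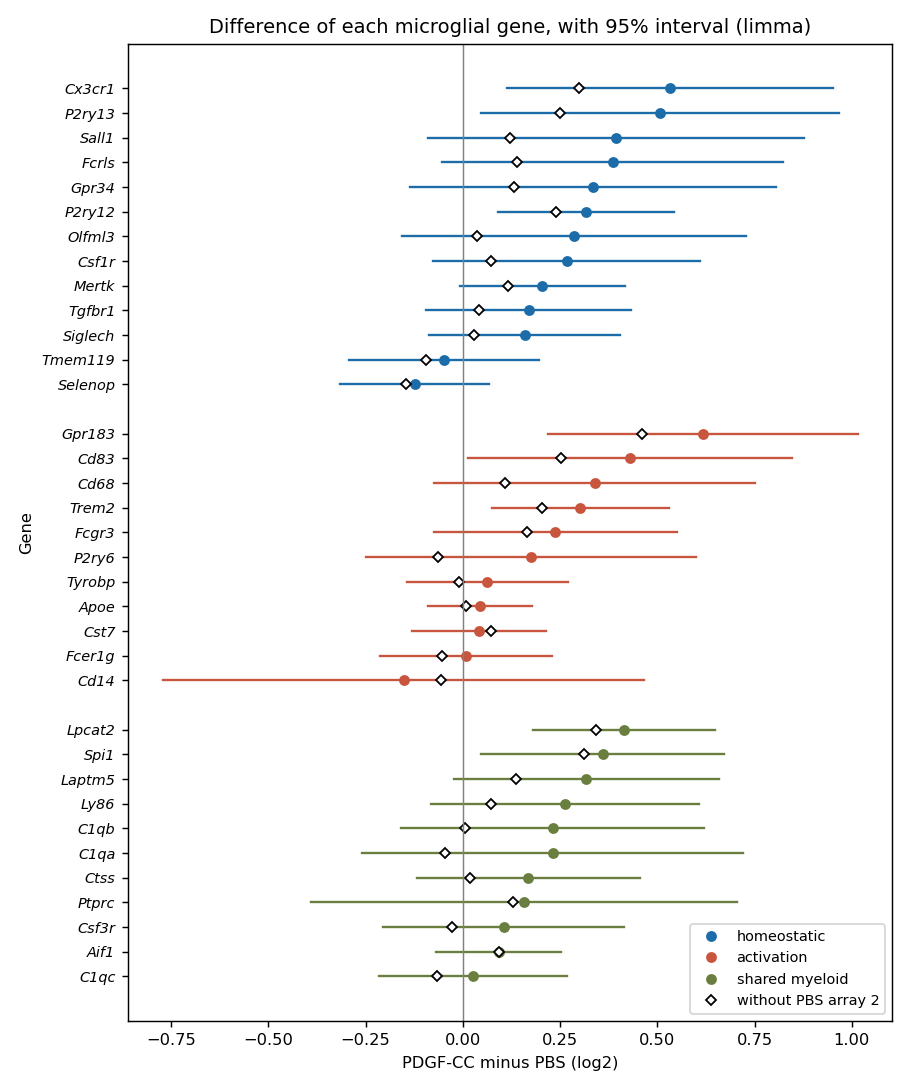
Differences between PDGF-CC and PBS for the 35 measured genes (log2, horizontal axis); filled points with lines are the limma estimate from all 7 arrays with its 95% interval, coloured by role, and open diamonds are the estimates without PBS array 2. Most diamonds lie to the left of their points, and those of Gpr183, Lpcat2, Spi1, Cx3cr1, Cd83, P2ry13 and P2ry12 lie farthest to the right, at +0.24 or more.

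The activation genes held the member with the largest difference, Gpr183. Of 11 members 10 were positive, the median was +0.18, and 3 were at an unadjusted p under 0.05; the same number had groups that did not overlap. Gpr183, an oxysterol receptor that guides immune cells, read 8.22, 8.05, 8.24 and 7.96 after PDGF-CC and 7.90, 7.19 and 7.41 after PBS. Every PDGF-CC array lay above every PBS array, although PBS array 1 came close. The difference was +0.62 ± 0.17 (adjusted p = 0.769 by limma), a 1.53-fold difference with a 95% interval from +0.22 to +1.02 in log2, and it was +0.46 ± 0.16 without PBS array 2.

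Trem2, a lipid-sensing receptor that drives the phagocytic state, read 8.56, 8.48, 8.47 and 8.39 after PDGF-CC and 8.18, 7.98 and 8.37 after PBS. The groups did not overlap, and the lowest PDGF-CC array was just above PBS array 3. The difference was +0.30 ± 0.097, and +0.20 ± 0.078 without PBS array 2. Its signalling adaptor Tyrobp was at +0.063 ± 0.088, and at -0.0091 without PBS array 2. Cd83, a surface protein of activated antigen-presenting cells, read 7.57, 7.48, 7.16 and 7.08 after PDGF-CC and 7.06, 6.54 and 7.08 after PBS. PDGF-CC arrays 1 and 2 were high, arrays 3 and 4 were close to PBS arrays 1 and 3, and the difference was +0.43 ± 0.18, or +0.25 ± 0.16 without PBS array 2.

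The lysosomal gene Cd68 read 10.31, 10.10, 10.22 and 10.14 after PDGF-CC and 10.11, 9.39 and 10.06 after PBS. Only PBS array 2 stood apart, and the difference of +0.34 ± 0.17 was +0.11 ± 0.074 without it. The Fc receptor gene Fcgr3 read 9.58, 9.67, 9.26 and 9.24 after PDGF-CC and 9.36, 9.05 and 9.19 after PBS, with groups that overlapped and a difference of +0.24 ± 0.13. P2ry6, a receptor for UDP that triggers phagocytosis, read 8.71, 8.75, 8.54 and 8.59 after PDGF-CC and 8.67, 7.996 and 8.75 after PBS. Its PBS arrays 1 and 3 lay within the range of the PDGF-CC arrays, and the difference of +0.18 ± 0.18 turned to -0.063 ± 0.078 without PBS array 2. The genes of the disease-associated state Apoe and Cst7 were at +0.044 ± 0.057 and +0.042 ± 0.073, and Fcer1g, the Fc receptor gamma chain, was at +0.0077 ± 0.094.

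Cd14, the co-receptor for bacterial lipopolysaccharide, was the negative activation member, and its arrays did not follow the treatment. It read 9.62, 9.38, 9.28 and 8.59 after PDGF-CC and 9.56, 9.56 and 8.99 after PBS. The highest and the lowest value were both PDGF-CC arrays, and the difference was -0.15 ± 0.26. Ptprc, which encodes the leukocyte antigen CD45, was similar, with 9.41, 9.10, 8.92 and 8.58 after PDGF-CC and 9.24, 8.79 and 8.51 after PBS, and a difference of +0.16 ± 0.23. The chemokine receptor gene Ccr2 of monocytes read 8.55, 7.76, 7.29 and 6.17 after PDGF-CC and 8.38, 7.58 and 6.46 after PBS. PDGF-CC array 4 and PBS array 3 were thus low in all 3 genes.

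Of 8 tested neutrophil and monocyte markers, 7 had a negative difference, with a median of -0.41. Ly6c2 had the smallest p among them, and all its PDGF-CC arrays lay below all PBS arrays. Its difference was -0.32 ± 0.087 (adjusted p = 0.769 by limma), and -0.37 without PBS array 2. Ly6c2 varied less between arrays of a group than most of these markers, with a pooled SD of 0.118 against a median of 0.779 over the list. The endothelial marker Ly6c1 was at -0.16 ± 0.074. Which cells the Ly6c2 values come from was not tested. The summed signal of the markers ran from 9.94 to 11.1 in the PDGF-CC arrays and from 10.4 to 11.6 in the PBS arrays (log2 of the sum). Camp and Ngp were below the brightness threshold. Their part in the values of Cd14 and Ptprc was not tested.

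Shared myeloid genes were positive in all 11 members, with a median of +0.23. Lpcat2 and Spi1 had an unadjusted p under 0.05, and only Lpcat2 had groups without overlap. Lpcat2, an enzyme that makes platelet-activating factor and membrane lipids, read 7.95, 8.12, 8.001 and 7.89 after PDGF-CC and 7.78, 7.43 and 7.51 after PBS. PBS array 1 was the nearest to the PDGF-CC arrays, and PBS arrays 2 and 3 were alike. The difference of +0.41 ± 0.099 (adjusted p = 0.769 by limma) was the one with the smallest p of all members, and it was +0.34 ± 0.10 without PBS array 2. Spi1, which encodes PU.1, the transcription factor that sets up the myeloid lineage, read 7.97, 7.78, 7.53 and 7.53 after PDGF-CC and 7.53, 7.24 and 7.25 after PBS. PBS array 1 lay level with PDGF-CC arrays 3 and 4, and the difference was +0.36 ± 0.13, or +0.31 ± 0.16 without PBS array 2.

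Laptm5, a lysosomal membrane protein gene of leukocytes, read 9.39, 9.16, 9.23 and 9.19 after PDGF-CC and 9.16, 8.57 and 9.06 after PBS, with a difference of +0.32 ± 0.14. Ly86, a partner of a Toll-like receptor homologue, read 10.03, 9.99, 10.15 and 9.99 after PDGF-CC and 10.003, 9.40 and 9.93 after PBS, with a difference of +0.26 ± 0.15. In both, PBS array 1 lay among the PDGF-CC arrays and PBS array 2 was far below, and without it they were at +0.14 and +0.074. The protease gene Ctss read 11.52, 11.56, 11.57 and 11.50 after PDGF-CC and 11.62, 11.07 and 11.42 after PBS, so that its highest value was a PBS array, and it was at +0.019 without PBS array 2.

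The complement genes C1qa, C1qb and C1qc encode the chains of C1q, which starts the classical pathway. C1qb read 10.57, 10.48, 10.48 and 10.48 after PDGF-CC and 10.51, 9.82 and 10.48 after PBS. Apart from PBS array 2 the arrays were nearly level, and the difference of +0.23 ± 0.17 was +0.0066 without it. C1qa was at +0.23 ± 0.21 and C1qc at +0.026 ± 0.10, and without PBS array 2 they were at -0.045 and -0.065. Aif1, a marker of microglia and macrophages also called Iba1, was at +0.092 ± 0.068, with PBS values of 8.95, 8.95 and 8.94 that showed no drop in PBS array 2. Csf3r, the receptor of granulocyte colony-stimulating factor, was at +0.10 ± 0.13 and at -0.028 without PBS array 2.

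Homeostatic and activation members were then set side by side. The median difference was +0.29 for homeostatic and +0.18 for activation genes, which are 0.11 apart. By means over the members the differences were +0.26 and +0.19. The homeostatic mean minus the activation mean varied between single arrays of a group with a pooled SD of 0.147. That SD is taken from means in single arrays, so it is not the error of the 0.11. Without PBS array 2 the medians were +0.12 and +0.072. PBS array 2 stood at -0.58 relative to the other PBS arrays in the median homeostatic member, -0.22 in the median activation member and -0.40 in the median shared member. The homeostatic and activation means by array were 9.53 and 8.82, 9.57 and 8.74, 9.68 and 8.68, and 9.61 and 8.55 in PDGF-CC arrays 1 to 4. In PBS arrays 1 to 3 they were 9.53 and 8.66, 9.004 and 8.32, and 9.47 and 8.54. Activation means were thus highest in PDGF-CC arrays 1 and 2, and homeostatic means in PDGF-CC arrays 3 and 4.

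The order of the 2 roles was also described in parts of the arrays, split by description number. This split was chosen after the data were seen, and the second part holds only PBS array 3. The parts therefore describe the arrays and do not test the order. Within description numbers 1 to 4 (PDGF-CC arrays 1 and 2 against PBS arrays 1 and 2) the median difference was +0.24 for homeostatic and +0.39 for activation genes. Within numbers 5 to 7 (PDGF-CC arrays 3 and 4 against PBS array 3) it was +0.17 and +0.046. Homeostatic minus activation was therefore -0.15 in the first and +0.13 in the second of these parts, against +0.11 with all arrays. For all members the median was +0.31 within 1 to 4 and +0.095 within 5 to 7. PBS array 2 lies in the part with the larger differences, and in both parts PDGF-CC numbers come before PBS numbers, so treatment and order within a part cannot be told apart.

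**Figure D3:**
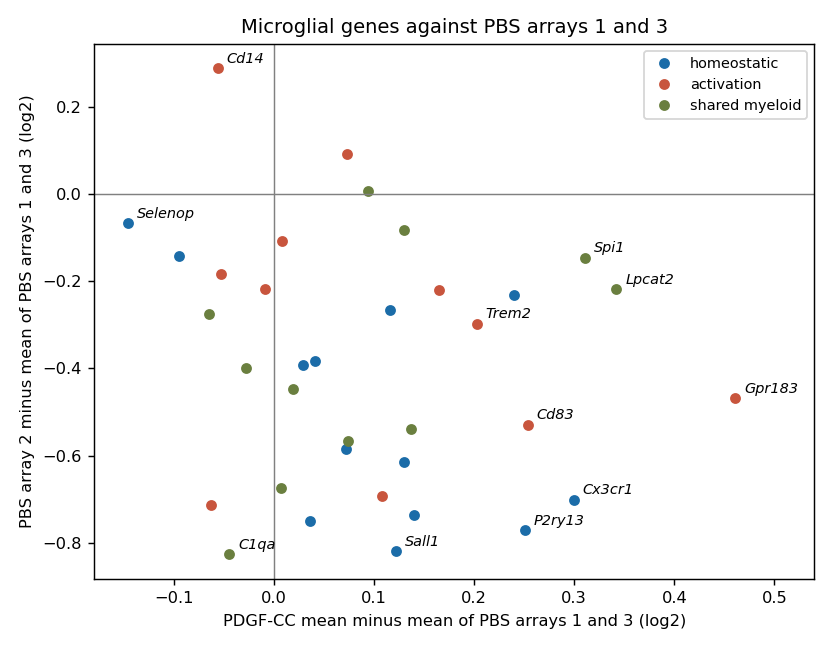
For each of the 35 genes, the PDGF-CC mean (horizontal axis) is set against PBS array 2 (vertical axis), both as log2 differences from the mean of PBS arrays 1 and 3. Most genes lie well below 0 on the vertical axis and near 0 on the horizontal one, with medians of -0.39 and +0.074; Gpr183 is farthest to the right at +0.46, and Cd14 is highest at +0.29.

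PU.1 binds purine-rich letters around GGAA, so the sequences just before the start sites of members were read from RefSeq (GRCm38.p6). A flank of 250 bases was given for 26 of 36 members. The others were Slco2b2, Tmem119, Csf1r, Gpr34, Tyrobp, Cd14, Cd83, P2ry6, C1qa and Spi1. The letters GAGGAA, on either strand, were in the flank of 15 of 26 members (57.7%), against 25.9% of 27025 genes and 26.1% of 12169 genes that were also tested. The letters GGAAGT, which can overlap with these, were in 12 of 26 (46.2%), against 22.2% of all genes and 25.3% of tested genes. Some genes have several flanks, 35 for the 26 members and 32851 for all genes, and a gene counts if any holds the letters; of single flanks, 23.3% held the first and 19.7% the second. Longer forms, which contain 1 or both of these, were rarer. GAGGAAG was in 9 members (34.6%, against 12% of all and 13% of tested genes) and GGAAGTG in 7 (26.9%, against 9.77% and 12.1%). The form GAGGAAGT was in 2 (7.69%, against 2.79% of both) and AGAGGAAGT in 1 (3.85%, against 0.94% and 0.994%). A match describes letters and is not a bound site.

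Of the members whose groups did not overlap and that have a flank, 5 are shown, to compare those that hold such letters with those that do not. Each line gives the 120 bases before the start site, read 5′ to 3′ on the gene's strand, with GAGGAA or GGAAGT, or their reverse complement, in capitals. P2ry13 and Trem2 hold GAGGAA, the second on the opposite strand, Gpr183 holds GGAAGT on the opposite strand, and Cx3cr1 and Lpcat2 hold neither in their 250 bases. The positions are chr3:59210883-59211002 (minus strand) for P2ry13, chr17:48346281-48346400 (plus) for Trem2, chr14:121965194-121965313 (minus) for Gpr183, chr9:120068297-120068416 (minus) for Cx3cr1 and chr8:92855213-92855332 (plus) for Lpcat2. The matches begin 48, 40 and 66 bases before the start in the first 3.
P2ry13: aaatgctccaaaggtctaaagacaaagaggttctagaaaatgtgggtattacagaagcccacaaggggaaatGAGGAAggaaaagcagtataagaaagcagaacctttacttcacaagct
Trem2: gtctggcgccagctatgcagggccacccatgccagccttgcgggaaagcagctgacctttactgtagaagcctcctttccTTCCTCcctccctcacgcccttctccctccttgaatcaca
Gpr183: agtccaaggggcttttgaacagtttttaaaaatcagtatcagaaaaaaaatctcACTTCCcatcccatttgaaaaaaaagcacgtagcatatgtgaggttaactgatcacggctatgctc
Cx3cr1: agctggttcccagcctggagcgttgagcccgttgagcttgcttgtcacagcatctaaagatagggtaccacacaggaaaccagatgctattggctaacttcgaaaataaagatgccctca
Lpcat2: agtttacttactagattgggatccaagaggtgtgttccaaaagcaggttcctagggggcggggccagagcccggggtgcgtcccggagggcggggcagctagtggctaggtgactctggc

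Of these 5 genes, Gpr183 and Lpcat2 kept the largest differences without PBS array 2, at +0.46 and +0.34, and Trem2 the smallest, at +0.20. Both Gpr183 and Trem2 hold such letters and Lpcat2 does not. Sall1 and Mertk also had a flank and groups that did not overlap, but are not shown. Each was lower still, at +0.12 without PBS array 2. Sall1 holds GGAAGT, and Mertk holds neither form in its 250 bases.

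Other genes of the same biology, which are not members, were also low in PBS array 2. Of 21 further microglial genes 17 were measured, 15 of them were positive, and the median was +0.24, or +0.11 without PBS array 2. All 17 were lower in PBS array 2 than the mean of the other PBS arrays, with a median of -0.43. Among all tested genes, 7897 of 15582 were lower there. All 12 endothelial markers were lower there too, with a median of -0.14. Irf8, a transcription factor that acts with PU.1, read 9.27, 9.25, 9.12 and 8.99 after PDGF-CC and 8.996, 8.03 and 8.04 after PBS, with a difference of +0.80 ± 0.24 (adjusted p = 0.769 by limma). Here PBS array 3 was as low as PBS array 2, and the difference without the latter was +0.64. C3ar1, the receptor for complement fragment C3a, and Hpgds, a prostaglandin D synthase, were at +0.44 ± 0.16 and +0.42 ± 0.16, and at +0.29 and +0.24 without PBS array 2.

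Of the 6 genes for ligands that maintain microglia, 3 were positive and the median was +0.020. Csf1, a growth factor for microglia through CSF1R, read 7.79, 7.87, 8.002 and 8.11 after PDGF-CC and 7.53, 7.43 and 7.74 after PBS. Its groups did not overlap, and the difference of +0.37 ± 0.10 was +0.30 without PBS array 2. Il34, the other CSF1R ligand, was at -0.15 ± 0.22, and Cx3cl1, which encodes fractalkine, at -0.062 ± 0.058. Tgfb1 read 9.01, 8.98, 8.99 and 8.998 after PDGF-CC and 8.94, 8.41 and 8.98 after PBS, so it was low in PBS array 2 alone, with +0.22 ± 0.13, and +0.037 without that array.

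Early inflammatory genes that microglia can make were not low in PBS array 2. Of 8 genes 6 were positive, with a median of +0.32, and PBS array 2 was the lowest array in 0 of them. Il1a was at +0.91 ± 0.22, Ccl3 at +0.58 ± 0.22 and Tnf at +1.20 ± 0.45. Without PBS array 2 they were at +0.90, +0.65 and +1.38. PDGF-CC array 4 was the lowest PDGF-CC array in each, at 7.985, 9.89 and 6.57. The highest PBS values were 7.85, 9.97 and 6.87. The negative genes were Il1b at -0.065 ± 0.68 and Ccl2 at -0.23 ± 0.42. Disease-associated genes showed no common direction: 6 of 12 were positive, with a median of +0.0067. Gpnmb, a glycoprotein of lipid-laden macrophages, was at -0.26 ± 0.096. Its means of 4.37 after PDGF-CC and 4.63 after PBS were close to the brightness threshold of 4.145.

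Border-associated macrophages, the other brain macrophages at vessels and meninges, share several of the members, and their own markers were tabulated for that reason. Of 9 measured markers 6 were positive, with a median of +0.038, and in PBS array 2 the median was 0.21 above the other PBS arrays. Their summed signal was 10.16 to 10.53 in the PDGF-CC arrays and 10.14 to 10.33 in the PBS arrays (log2 of the sum), the highest PBS value being that of PBS array 2. Ms4a7 was at +0.37 ± 0.12, with groups that did not overlap, and Pf4 at -0.18 ± 0.084. Among vascular cells, the median in PBS array 2 was -0.14 for 12 endothelial and -0.17 for 10 pericyte markers relative to the other PBS arrays. For 5 smooth muscle markers it was +0.034. Between PDGF-CC and PBS, 8 of 12 endothelial and 9 of 10 pericyte markers had negative differences, with medians of -0.036 and -0.15. All 5 smooth muscle markers had positive ones, with a median of +0.21. Choroid plexus markers had the opposite sign to the microglial ones: all 7 had negative differences, with a median of -0.78, and PBS array 2 stood at +0.31. The choroid plexus sum was 12.46 to 12.90 in PDGF-CC and 12.99 to 13.10 in PBS arrays. Whether the makeup of the fragments has a part in the microglial values was not tested.

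**Figure D4:**
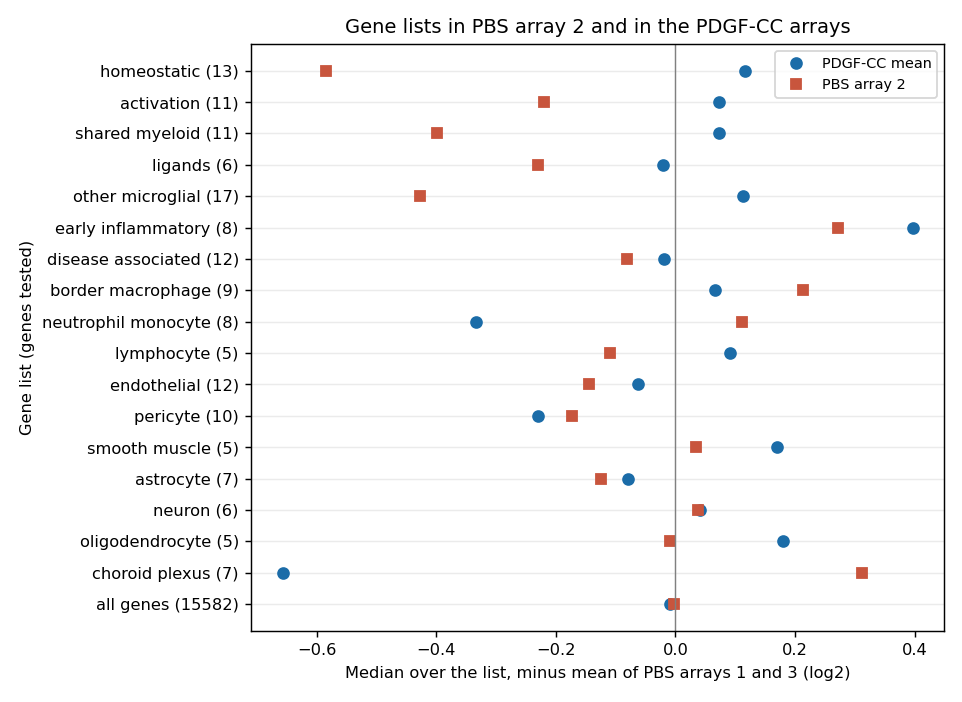
For each gene list (vertical axis, with the number of genes tested), the median over its genes is given as a log2 difference from the mean of PBS arrays 1 and 3 (horizontal axis), for the PDGF-CC mean (circles) and PBS array 2 (squares). The 4 microglial lists of members and further genes have squares between -0.58 and -0.22, while those of early inflammatory genes, border macrophages and choroid plexus lie at +0.27, +0.21 and +0.31.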

How the data were processed

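Per the submitters' processing notes, Affymetrix Expression Console, RMA and limma were used. The genome build is not given in the sources used here, nor are versions or settings. The deposited values are log2 expression levels per probe set, as their range and near-equal distributions show. RMA as commonly run equalises distributions between arrays, so differences in total RNA level are not kept. Of 33793 probe sets, 23521 carried 1 gene symbol, 1814 several and 8458 none, per the platform annotation. The tested set held 17734 annotated probe sets whose mean over arrays exceeded 4.145, their 30th percentile. The brightest probe set stood for a gene. PDGF-CC and PBS were compared with lmFit and eBayes of limma 3.58.1 (R 4.3.3), 2-sided, without covariates, and Benjamini-Hochberg adjustment over all tested probe sets at a threshold of 0.05. The fit was tested on simulated data. Alternatives were other filters, normalization, priors, probe set means, array weights, description numbers, blocks, role lists and leaving out each array. Arrays carry no read depth, so their number limits the precision.

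The members, roles and other lists were chosen with earlier results of these data known. Roles are described by counts and medians without a test. Values in every array are given for up to 6 members of each role with the smallest p and for those without overlap. From other lists, genes were named for the smallest p, up to 3 each. Ccr2, Il34, Il1b, Ccl2, Cd14, Ptprc and Aif1, and the 5 sequences, were chosen after their values were seen. Figures were drawn with matplotlib 3.10.9.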

Additional observations from a re-analysis of the deposited data

Results flagged for a closer look

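In 3 of 35 members, 1 of the 4 PDGF-CC arrays lay far from the others (gap over range above Dixon's critical value), and each time it was PDGF-CC array 1. Tmem119 was low there, with a gap of 0.874 of the range. C1qa and C1qb were high there, with gaps of 0.835 and 1, the latter because the other 3 arrays held the same C1qb value. Chance alone gives about 1 such flag in 20 groups. Groups of 3 are not tested this way, so PBS array 2 is described by its values only.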

How the results depend on the processing

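The median of all members stayed positive in every setting run, from +0.074 without PBS array 2 to +0.33 without PBS array 1. No member passed the adjusted threshold in any of the 17 settings (adjusted p from 0.412 to 1 by limma). The count of called probe sets was 0 with all arrays, 1 with repeated quantile normalization, and 3 with the filter at the 50th percentile, centred arrays, a trended and robust prior, or means over the probe sets of a gene. Leaving out single arrays gave 0 to 1. In arrays with description numbers 1 to 4, a split chosen after seeing the data, the activation median was +0.39 and homeostatic minus activation -0.15.

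Of 35 members, 25 kept their sign in every setting. With array weights, Tyrobp was at -0.0012, Fcer1g at -0.050 and Ptprc at -0.019. With the description number as covariate, Tmem119 was at +0.0030, Fcer1g at -0.026 and Ptprc at -0.012. With the replicate number of the titles as a block, Cd14 was at +0.058 and C1qc at -0.013, and with a block for the part of the description numbers (1 to 4, or 5 to 7) C1qc was at -0.0012. Over single arrays left out, Tmem119 ran from -0.095 to +0.039, Fcer1g from -0.061 to +0.053, Cd14 from -0.34 to +0.058, C1qc from -0.065 to +0.091, Tyrobp from -0.0091 to +0.12, P2ry6 from -0.063 to +0.31, C1qa from -0.045 to +0.41, Csf3r from -0.028 to +0.22, Cst7 from -0.019 to +0.083 and Ptprc from -0.012 to +0.35. The cause of these turns was not tested. Same-numbered arrays deviated together at low correlations of 0.163, 0.107 and 0.0844, and the numbers were not taken as pairs. Still, 2 of 3 PBS arrays correlated best with the PDGF-CC array of their own number. With the replicate block 0 probe sets were called and the median of all members was +0.25. PDGF-CC array 4 has no PBS array of its number, so it adds nothing to that estimate.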

Other observations

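Repeated values were less common among the members than elsewhere: 14 of 35 held exactly the same value in more than 1 array, against 64.3% of all tested genes, and the origin of equal values was not tested. Irf8 had 2 probe sets, which differed by +0.80 ± 0.24 and +0.45 ± 0.14.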
